A study of Homo sapiens with 6 samples.

Results

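The 53 genes described here encode the machinery that licenses replication origins and copies DNA. They were taken from a table of 35035 genes by exact symbol, and all 53 were found and had enough reads to be tested. The RNA came from HK-2 cells, an established line of human proximal tubular epithelial cells, transfected with an empty-vector plasmid (labelled WT, 3 libraries) or with a circAASS overexpression plasmid (3 libraries). The name circAASS points to a circular RNA made from AASS. All cells of both groups spent 24 h at 1% oxygen followed by 12 h of reoxygenation, so hypoxia and reoxygenation are shared by both groups and no cells kept at normal oxygen were analysed here. The sample labels give this reoxygenation time; the series' own description instead names 24 h, and the labels were followed. The comparison asks how the plasmid changed replication transcripts under these conditions. Whether the 3 repeats of a group were separate cultures is not in the labels, so p-values capture only how far these libraries vary, which may be technical variation.

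DNA replication starts in G1 phase, when the origin recognition complex (ORC), CDC6 and CDT1 load the ring-shaped helicase MCM2-7 onto DNA, a step called licensing. In S phase the kinase of CDC7 and DBF4, with the cyclin-dependent kinases, converts the loaded helicase into an active form that also holds CDC45 and the GINS complex. Polymerase alpha with primase starts each strand, the clamp loader RFC places the sliding clamp PCNA, and polymerases delta and epsilon extend the strands. Transcription of most of these genes is driven by E2F factors and restrained by the RB family. Resting tubular cells of the kidney rarely divide, and they enter the cell cycle during repair after injury, whereas HK-2 cells are an immortalised line that cycles in culture.

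Promoter sequence is shown because E2F control is the feature that the members are known to share and that the choice of members did not use. RefSeq promoters (GRCh38.p14, 250 bases before to 50 after the start) were at hand for 47 of the 53 members. GINS4, MCM5, RPA3, MCM4, POLD3 and RPA2 had none. The letters TTTCCCGC, TTTCGCGC, TTTGCCGC or TTTGGCGC, forms of the E2F site, stood on either strand in 23 of the 47 members (48.9%). Among all tested genes with a promoter in that table the share was 6.4% (708 of 11132). Some genes have several promoters. Counted by promoter, the share was 39.3% of 61 for the members and 4.7% of 16110 for all tested genes. Over all 35116 promoters, those of untested genes included, it was 3.3%. The letters CCAAT, bound by NF-Y, stood in 29 of the 47 members (61.7%) and in 42.7% of the tested genes. A match describes letters in a window and does not show that a factor binds there.

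The windows below lie wholly before the start. They belong to the called members with a match there (GMNN, LIG1 and RFC3), to MCM6, which had the most matches, and to PCNA. GMNN and PCNA each also have a promoter without such a match. Capitals mark the E2F letters, read 5′ to 3′ on the strand of the gene. In MCM6 the 4 matches overlap as pairs, because TTTGGCGC followed by GAAA also holds TTTCGCGC on the opposite strand.
GMNN, chr6:24775303-24775370, + strand: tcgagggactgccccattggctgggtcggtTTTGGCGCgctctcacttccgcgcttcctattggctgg
LIG1, chr19:48170421-48170488, - strand: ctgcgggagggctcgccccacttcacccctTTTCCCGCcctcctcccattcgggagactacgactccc
RFC3, chr13:33818064-33818131, + strand: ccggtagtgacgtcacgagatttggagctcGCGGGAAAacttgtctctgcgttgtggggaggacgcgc
MCM6, chr2:135876492-135876625, - strand: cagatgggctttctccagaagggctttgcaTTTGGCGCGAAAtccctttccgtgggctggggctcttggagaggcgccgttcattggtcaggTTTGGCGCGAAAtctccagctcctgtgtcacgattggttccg
PCNA, chr20:5126644-5126711, - strand: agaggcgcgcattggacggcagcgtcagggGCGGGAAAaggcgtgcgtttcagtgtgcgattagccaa

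Members with these letters were found among those that rose, those that fell and those that did not pass. The counts were 2 of 6 members that rose (GMNN and CDC6), 4 of 7 that fell (LIG1, RFC3, MCM2 and GINS1) and 17 of 34 that did not pass. GMNN and LIG1, whose windows are printed above, thus carry related letters and moved in opposite directions.

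The deposited values are RPKM, reads scaled to gene length and library size, from 45148425 to 58179563 reads per library. Each member had between 311 and 31645 reads in each library. Of the proximal tubule markers, LRP2, CUBN, AQP1, SLC34A1 and ANPEP stood at 0.0677 RPKM or lower in all 6 libraries. SLC5A2, a glucose transporter with 40.7% of its exon bases in opposite-strand genes, stood at 3.44 to 4.21 RPKM with empty vector and fell to between 1.71 and 2.06 (limma, adjusted p = 0.00118). GGT1, a brush-border enzyme, fell from 8.66 to 9.75 RPKM to between 6.80 and 7.37 (adjusted p = 0.00895), and the lineage factor PAX8 rose from 24.2 to 26.4 RPKM to between 39.8 and 45.1 (adjusted p = 2.42e-04). The list as a whole summed to 50.3 to 50.8 RPKM against 60.8 to 66.2. Epithelial markers summed to 289 to 303 RPKM against 321 to 360: KRT8 and KRT18 rose (127 to 149 and 79.3 to 107 RPKM on average), EPCAM fell (26.8 to 22.1), KRT19 did not pass and CDH1 was at 0.0857 or lower. The endothelial list summed to at most 0.107 RPKM and that of the distal nephron to at most 0.0828. The leukocyte list summed to 102 to 106 RPKM against 78.6 to 101, nearly all of it CD68, which shares 85.8% of its exon bases with other genes and did not pass. CD14 stood at 0.253 to 0.475 RPKM, and PTPRC and CD3E at 0.0138 or lower. The fibroblast list summed to 3.67 to 4.42 RPKM against 4.15 to 4.43, with COL1A2, COL3A1, DCN and PDGFRA near 0. The list of 5 RNAs without poly(A) tails summed to 103 to 125 RPKM in the empty-vector libraries and to 144 to 292 in the circAASS libraries. Of these, 3 rose (RN7SK, RN7SL1 and RN7SL2), RPPH1 did not pass and RMRP was not tested. RN7SK, RN7SL1 and RPPH1 share 100% of their exon bases with other genes of the same strand. RN7SK was uneven with circAASS, at 55.6, 135 and 190 RPKM, against 44.7, 34.1 and 37.0 with empty vector. The differences in these RNAs and in the tubular and epithelial markers run with the groups in every comparison below, and their part in the results was not tested.

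Of the 53 members, 7 rose and 8 fell with the circAASS plasmid, and 38 did not pass (limma, Benjamini-Hochberg adjusted p under 0.05 over 19350 genes). Over all tested genes 32.4% were called, 16.4% higher and 16.0% lower, against 28.3% of the members. The share of members called is thus close to the background and is no result about the set. The median log2 fold change of the members was 0.02, beside -0.01 for all tested genes. Changes were small: the median absolute log2 fold change was 0.14 in the members and 0.23 in all genes, and the greatest was 0.62, that of LIG1. No member changed by 2-fold, whereas 3.07% of all tested genes were called with a change of that size. In bulk RNA, fewer cells in S phase and less RNA per cell cannot be told apart.

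**Figure D1:**
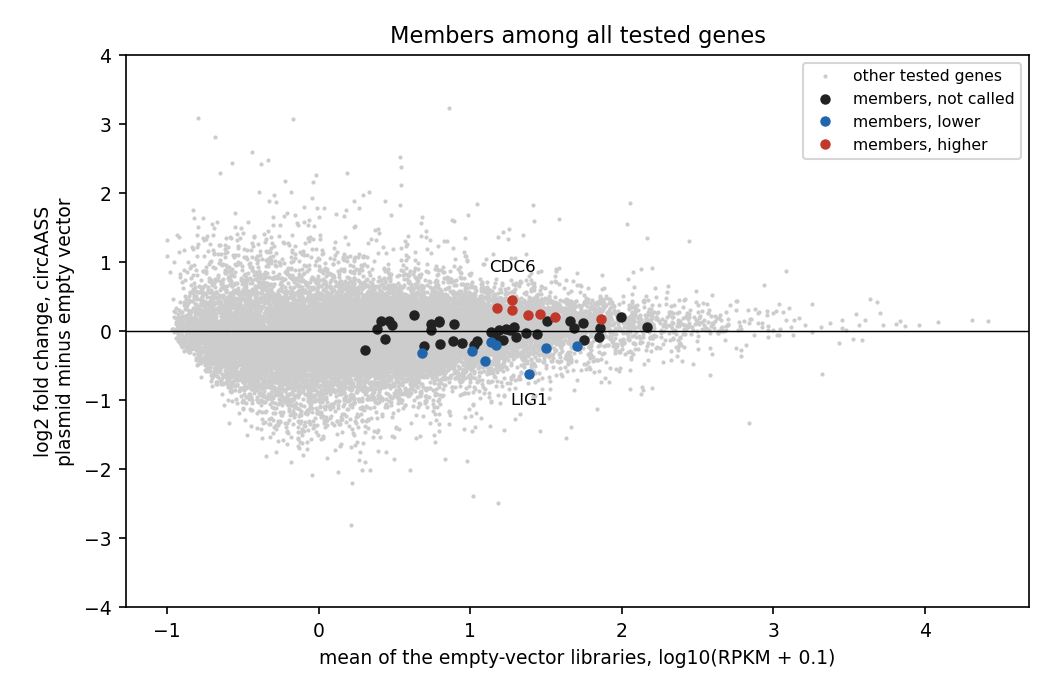
Each point is a tested gene, placed by its mean level with empty vector (log10 of RPKM + 0.1) and its log2 fold change (circAASS plasmid minus empty vector). Small grey points are other genes, and larger points the 53 members (red higher, blue lower, black not past the threshold), which lie close to 0 between -0.62 (LIG1) and 0.46 (CDC6).

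The scaling of the libraries sets the balance of these calls. With factors from a trimmed mean, used here, 7 members rose and 8 fell. With library size alone 3 rose and 19 fell (background 11.2% higher and 20.8% lower). With upper-quartile scaling 13 rose and 4 fell, beside 4065 higher and 2621 lower of the 19350 tested genes. The calls over all genes moved in the same directions as those of the members. The median of all genes moved only from -0.01 to -0.08 and to 0.04, so shifts of this size were enough to change these counts. Members with a deposited mean slightly lower with the circAASS plasmid can have a fold change above 0 after scaling, as MCM3 and PCNA do. Fold changes below use the trimmed-mean scaling, and levels are the deposited RPKM (mean ± SD, n = 3 each).

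CDC6, ORC6 and TK1 rose and LIG1 and POLD2 fell under all 16 alternative settings tried, which included leaving out each library in turn. The calls of the other 10 members were lost in between 2 and 10 of these settings. The call of POLD3 was lost whichever library was left out. Without empty-vector library 2, 3 members rose and 2 fell, which are those named first. Members that fell numbered 3 without empty-vector library 1 and 4 without empty-vector library 3, circAASS library 2 or circAASS library 3.

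**Figure D2:**
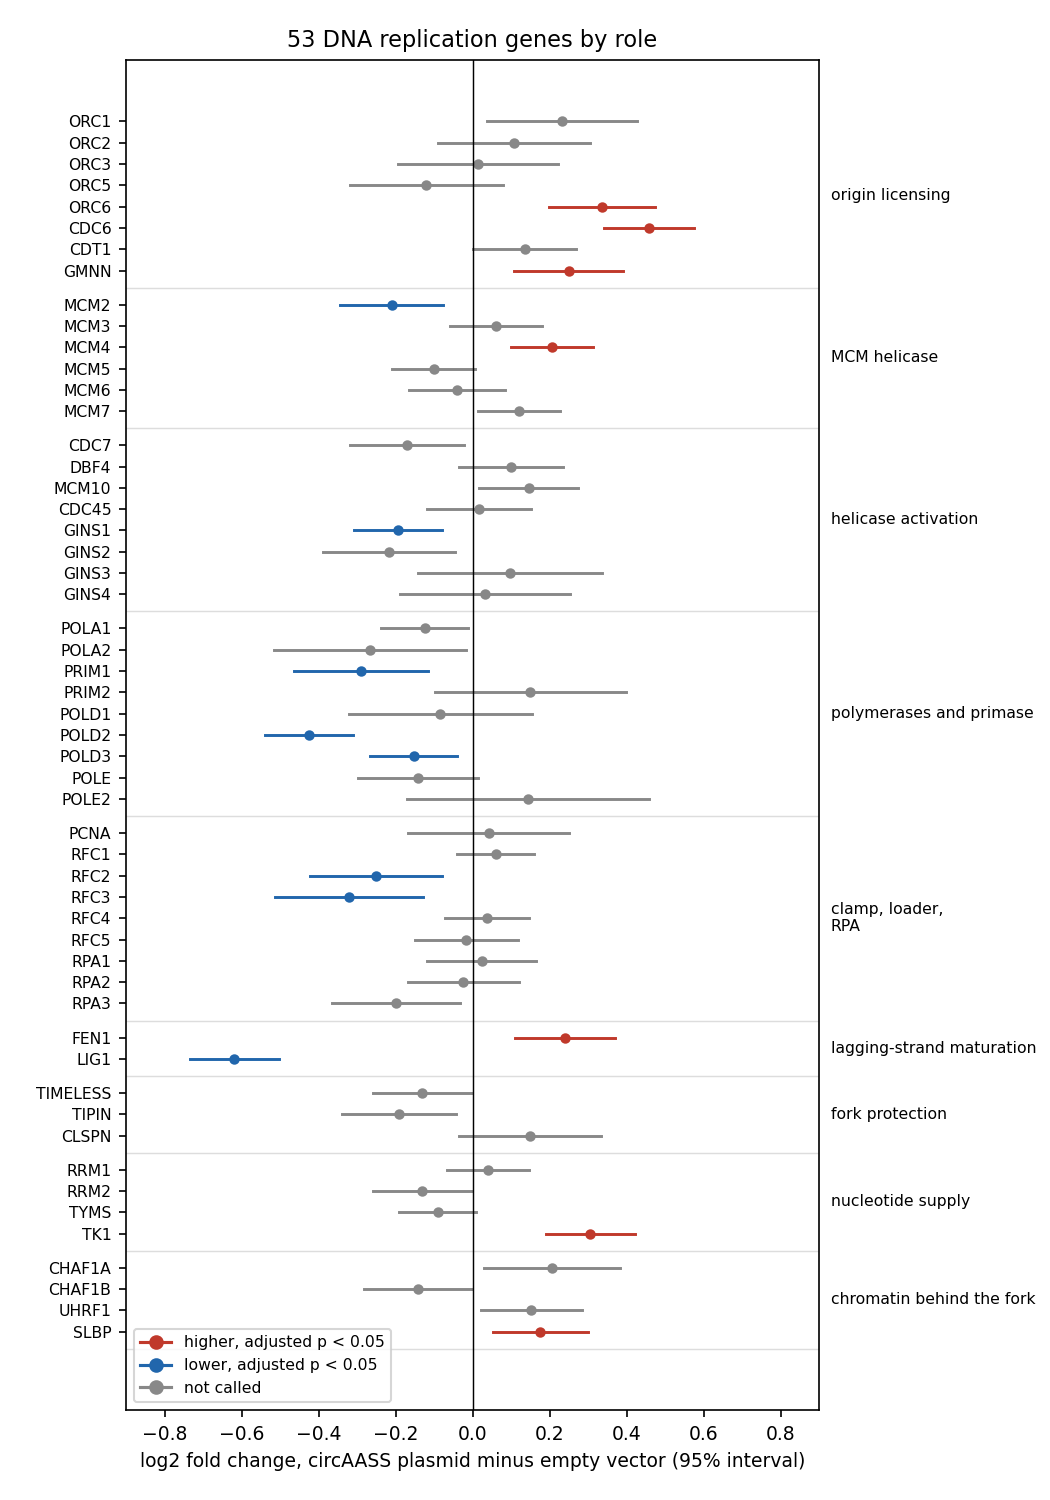
Log2 fold change of each member (circAASS plasmid minus empty vector) with its 95% interval, grouped by role. Red and blue mark members past the adjusted threshold; licensing genes lie mostly to the right of 0 and polymerase and primase genes mostly to the left.

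Origin licensing held the most members that rose. It held 8 genes, of which 3 rose and 5 did not pass. The share called, 37.5%, is near the 32.4% of all tested genes and is no result about this role. The median log2 fold change was 0.18 (0.11 with library size alone, where CDC6 and ORC6 rose). CDC6, the ATPase that helps ORC load the helicase (chromosome 17, 40287633 to 40304657), stood at 19.6, 18.2 and 18.6 RPKM with the empty plasmid and at 24.1, 24.8 and 24.8 with circAASS. The groups did not overlap. Its mean went from 18.8 ± 0.716 to 24.5 ± 0.420 RPKM, a log2 fold change of 0.46 (SE 0.05, adjusted p = 9.69e-04), or 1.37-fold.

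ORC6, the smallest ORC subunit (chromosome 16, 46689643 to 46698394), stood at 14.2, 15.2 and 15.3 RPKM against 16.9, 19.0 and 17.6. All circAASS libraries lay above all empty-vector libraries, and the log2 fold change was 0.34 (SE 0.06, adjusted p = 0.00537). GMNN, geminin, binds CDT1 and blocks renewed licensing after S phase has begun (chromosome 6, 24774931 to 24786099). It stood at 28.5, 27.6 and 30.5 RPKM against 31.1, 34.8 and 31.7, with a log2 fold change of 0.25 (SE 0.06, adjusted p = 0.0186). The groups are close, and the call of GMNN was lost when empty-vector library 1 or 2 was left out, with library size alone and without trend and robust prior (adjusted p up to 0.0726).

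CDT1, the licensing factor that geminin holds back, did not pass, at 6.13 ± 0.141 and 6.39 ± 0.296 RPKM (log2 fold change 0.14, 95% interval 0.00 to 0.27, adjusted p = 0.109). The ratio of GMNN to CDT1, which no scaling of libraries can move, was 4.72 ± 0.350 against 5.10 ± 0.379, and the groups overlapped. The ratio of CDC6 to CDT1 was 3.07 ± 0.109 against 3.84 ± 0.133, without overlap. The other ORC subunits among the members did not pass. ORC1, the subunit that varies with the cell cycle, stood at 4.16 and 4.65 RPKM (log2 fold change 0.23, adjusted p = 0.0687) and passed only with upper-quartile scaling or with voom on whole reads (adjusted p = 0.0349 at the lowest). ORC2 (5.40 and 5.53 RPKM), ORC3 (5.43 and 5.19) and ORC5 (2.63 and 2.29) had adjusted p of 0.321 or more.

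Of the 6 subunits of the MCM2-7 ring, which assemble in equal numbers, MCM4 rose, MCM2 fell and the other 4 did not pass. Their median was 0.01, and the share called was 33.3%, beside 32.4% of all genes. MCM4 (chromosome 8, 47960185 to 47978160) stood at 35.7, 36.0 and 36.5 RPKM against 37.3, 40.7 and 40.3 (log2 fold change 0.21, SE 0.05, adjusted p = 0.0128). MCM2 (chromosome 3, 127598223 to 127622436) stood at 52.1, 51.4 and 48.6 RPKM against 41.0, 39.4 and 44.2 (log2 fold change -0.21, SE 0.06, adjusted p = 0.0280). Neither pair of groups overlapped. MCM4 was lost with library size alone and without empty-vector library 2 (adjusted p up to 0.0856), and MCM2 in 7 of the 16 alternatives (up to 0.0963). Genes on the opposite strand share 23.6% of MCM2's exon sequence, and as no use of strand in the counting is stated, reads of both cannot be told apart.

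Shares of the summed RPKM of MCM2 to MCM7 do not depend on library scaling and are given for that reason. MCM2 made up 15.4%, 15.7% and 14.8% of it in the empty-vector libraries, against 13.0%, 12.1% and 13.6%. MCM4 made up 10.5%, 11.0% and 11.1% against 11.9%, 12.5% and 12.4%. The ratio of MCM4 to MCM2 accordingly went from 0.712 ± 0.0342 to 0.952 ± 0.0701. MCM7 also took a higher share in each circAASS library (16.7% and 17.7% on average), and MCM5 (4.45% and 4.05%) and MCM6 (8.28% and 7.85%) a lower one. The share of MCM3, at 44.5% and 45.3%, overlapped between groups. MCM3 was the most abundant of the 53 members, at 148 and 146 RPKM.

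**Figure D3:**
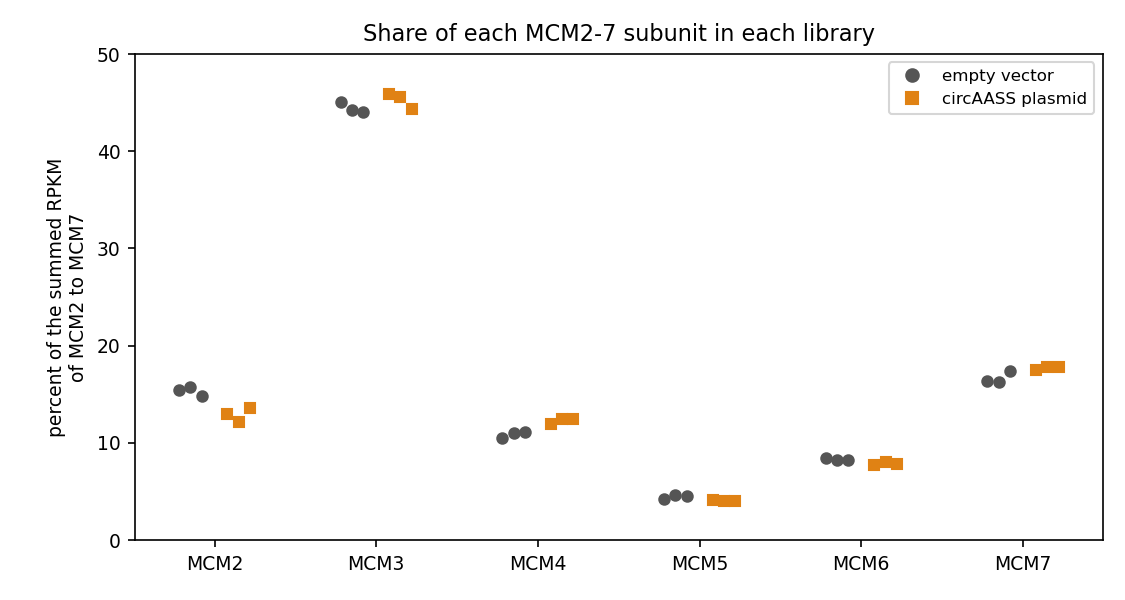
Share of each subunit in the summed RPKM of MCM2 to MCM7 (percent), 1 point per library, circles for empty vector and squares for the circAASS plasmid. MCM2 lies lower and MCM4 higher in all 3 circAASS libraries; MCM3 overlaps.

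Among the 8 genes that turn the loaded ring into an active helicase, 1 fell and 7 did not pass (median 0.02). The share called was 12.5%, beside 32.4% of all genes. GINS1, a subunit of the GINS complex (chromosome 20, 25407727 to 25452628), stood at 15.02, 14.3 and 14.8 RPKM against 12.3, 11.9 and 12.3 (log2 fold change -0.19, SE 0.05, adjusted p = 0.0215). The groups did not overlap, but the call was lost without any single empty-vector library or without circAASS library 3 (adjusted p up to 0.0697). Its partner GINS2 stood at 4.81, 4.68 and 5.17 RPKM against 3.60, 4.11 and 4.22, also without overlap, and missed the threshold (log2 fold change -0.22, adjusted p = 0.0583).

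The other GINS subunits, GINS3 (2.95 and 2.99 RPKM) and GINS4 (2.32 and 2.25), overlapped between groups. CDC45, which rides with MCM2-7 and GINS, stood at 15.5 and 14.9 RPKM (95% interval -0.12 to 0.15). MCM10, needed to start unwinding, stood at 6.18 ± 0.0951 and 6.48 ± 0.0603 RPKM (log2 fold change 0.15, adjusted p = 0.0797). The kinase CDC7 and its activator DBF4 had estimates of opposite sign, -0.17 (8.79 and 7.40 RPKM, adjusted p = 0.0768) and 0.10 (7.75 and 7.87 RPKM, adjusted p = 0.225). The ratio of DBF4 to CDC7 was 0.899, 0.879 and 0.866 against 1.21, 0.968 and 1.03.

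Of 9 polymerase and primase genes, 3 fell, none rose and 6 did not pass (33.3% called, beside 32.4% of all genes). Their median was -0.14, and it stayed below 0 under each scaling (-0.22 with library size alone and -0.09 with upper-quartile scaling, where 5 and 2 fell). POLD2, the accessory subunit of polymerase delta (chromosome 7, 44114681 to 44124358), stood at 12.5, 12.0 and 12.5 RPKM against 8.40, 8.91 and 8.81. The gap between the groups was far wider than the spread within either. The log2 fold change was -0.42 (SE 0.05, adjusted p = 0.00115), a fall of 1.34-fold.

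PRIM1, the catalytic primase subunit (chromosome 12, 56731596 to 56752373), stood at 9.96, 10.3 and 10.2 RPKM against 8.22, 8.13 and 7.18 (log2 fold change -0.29, SE 0.07, adjusted p = 0.0224). Of its exon bases, 21.6% lie in other genes too, and its call was lost without any single empty-vector library (adjusted p up to 0.0732). POLD3, another accessory subunit of polymerase delta (chromosome 11, 74493851 to 74669117), stood at 13.6, 13.9 and 13.4 RPKM against 11.5, 11.4 and 11.9 (log2 fold change -0.15, SE 0.05, adjusted p = 0.0465). It lay just inside the threshold.

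POLD1, the catalytic subunit of polymerase delta, varied more between libraries and overlapped, at 19.9 ± 1.64 and 17.9 ± 2.03 RPKM (adjusted p = 0.563). Within polymerase delta the share of POLD2 went from 27.0% ± 1.18 to 22.9% ± 1.78, and those of POLD1 and POLD3 overlapped between groups. PRIM2, the larger primase subunit, stood at 2.80 and 2.96 RPKM, so the ratio of PRIM1 to PRIM2 was 3.64 ± 0.354 against 2.69 ± 0.498. POLA1 (16.4 and 14.3 RPKM, adjusted p = 0.0848) and POLA2 (1.94 and 1.50, adjusted p = 0.0938), both of polymerase alpha, and POLE, the catalytic subunit of polymerase epsilon (11.0 and 9.44, adjusted p = 0.147), missed the threshold with estimates below 0. POLA1 and POLE passed with library size alone (adjusted p = 0.0208 and 0.0448), and POLA2 with voom and without empty-vector library 1 (lowest adjusted p = 0.0372). POLE2, an accessory subunit of polymerase epsilon, stood at 2.48 and 2.58 RPKM. POLA2 had the lowest level of the members, and 35.1% of its exon bases lie in another gene.

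The sliding clamp itself did not differ beyond its spread. PCNA, the ring that holds polymerases on DNA and whose promoter window is printed above, stood at 66.7, 70.7 and 77.0 RPKM against 60.8, 78.1 and 70.9 (95% interval -0.17 to 0.25, adjusted p = 0.750). Of the 9 genes of clamp, clamp loader and single-strand binding, 2 fell, none rose and 7 did not pass. The share called was 22.2%, beside 32.4% of all genes. The median was -0.02, and it was -0.09 with library size alone and 0.03 with upper-quartile scaling.

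RFC2, a small subunit of the clamp loader (chromosome 7, 74231499 to 74254458), stood at 31.6, 31.6 and 31.5 RPKM against 27.7, 23.8 and 24.1 (log2 fold change -0.25, SE 0.07, adjusted p = 0.0367). RFC3 (chromosome 13, 33818049 to 33966558) stood at 4.64, 5.14 and 4.32 RPKM against 3.54, 3.49 and 3.58 (log2 fold change -0.32, SE 0.08, adjusted p = 0.0220). Neither overlapped, but RFC2 was lost in 8 of the 16 alternatives and RFC3 in 5 (adjusted p up to 0.107 and 0.0731). Leaving out either empty-vector library 1 or 2 or circAASS library 2 or 3 ended both calls, and for RFC2 also empty-vector library 3.

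The other loader subunits RFC1 (19.3 and 19.1 RPKM), RFC4 (17.1 and 16.7) and RFC5 (13.6 and 12.7) had adjusted p of 0.319 or more. Within the summed RPKM of RFC1 to RFC5, the share of RFC2 went from 36.6% ± 0.342 to 32.6% ± 2.71 and that of RFC1 from 22.4% ± 0.0685 to 24.7% ± 0.808, without overlap in either. Of the single-strand binding protein RPA, RPA1 (18.3 and 17.6 RPKM) and RPA2 (23.1 and 21.5) overlapped between groups. RPA3, the smallest subunit, stood at 10.4 ± 1.02 and 8.57 ± 0.125 RPKM (log2 fold change -0.20, adjusted p = 0.0679) and passed with library size alone and with voom (lowest adjusted p = 0.0269).

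Enzymes that finish the lagging strand moved in opposite directions. Both were called, beside 32.4% of all genes, and a list of 2 is too small for its share to be read. LIG1, the DNA ligase that seals Okazaki fragments (chromosome 19, 48115445 to 48170603), stood at 23.8, 24.4 and 24.8 RPKM against 15.4, 14.4 and 15.04, with a wide gap between the groups. It had the greatest change of the members, a log2 fold change of -0.62 (SE 0.05, adjusted p = 3.49e-04), or 1.54-fold lower. FEN1, the nuclease that removes the flap before ligation (chromosome 11, 61792637 to 61797244), stood at 24.6, 23.0 and 24.6 RPKM against 25.0, 28.1 and 27.9 (log2 fold change 0.24, SE 0.06, adjusted p = 0.0158). Its groups were close, and the call was lost without empty-vector library 2 and with library size alone (adjusted p up to 0.0819). The ratio of FEN1 to LIG1 was 1.03, 0.945 and 0.994 against 1.62, 1.95 and 1.85, independent of scaling. Ratios given here were chosen after the values of their genes were seen and carry no test.

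**Figure D4:**
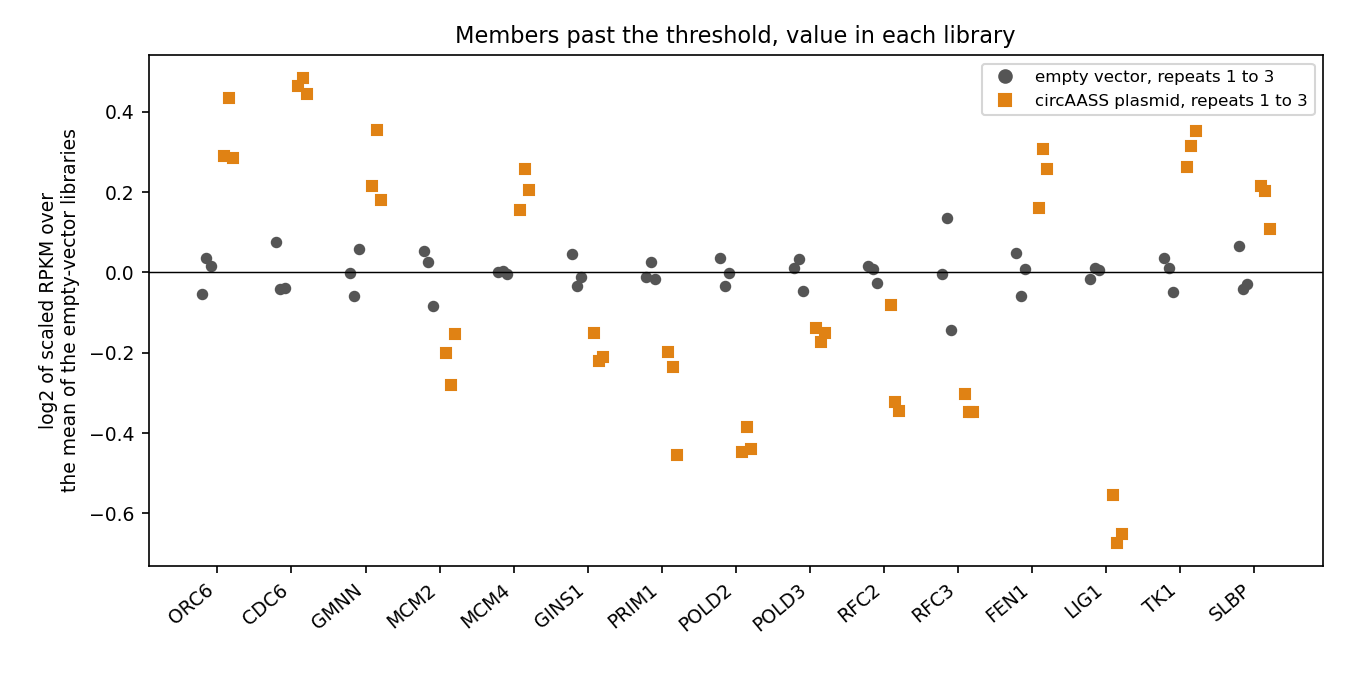
The 15 members past the threshold, each library as a point: log2 of its scaled RPKM over the mean of the empty-vector libraries, circles for empty vector and squares for the circAASS plasmid, repeats 1 to 3 from left to right. LIG1 and POLD2 lie lowest and CDC6 and ORC6 highest; RFC2 has circAASS library 1 near the empty-vector libraries.

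None of the 3 fork-protection genes passed, beside 32.4% of all genes. TIPIN, the partner of TIMELESS at the fork, stood at 6.09, 6.15 and 6.33 RPKM against 5.38, 4.91 and 5.09 (log2 fold change -0.19, adjusted p = 0.0542), with 21.0% of its exon bases in another gene. TIMELESS stood at 57.6, 55.7 and 55.4 RPKM against 49.7, 49.2 and 46.9 (log2 fold change -0.13, adjusted p = 0.102). Both had groups that did not overlap, and both passed with library size alone (adjusted p = 0.0153 and 0.0107), TIPIN also with a mean of at least 1 RPKM and without circAASS library 1. CLSPN, claspin, which links the fork to the checkpoint kinase CHEK1, stood at 32.3 ± 0.942 and 34.0 ± 3.09 RPKM (adjusted p = 0.189).

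Of the 4 genes of nucleotide supply, 1 rose and 3 did not pass (25.0% called, beside 32.4% of all genes). TK1, the cytosolic thymidine kinase of S phase (chromosome 17, 78174075 to 78187233), stood at 19.1, 18.9 and 18.5 RPKM against 21.0, 22.1 and 23.3 (log2 fold change 0.31, SE 0.05, adjusted p = 0.00379). TYMS, which makes thymidylate from deoxyuridylate, had an estimate below 0, from 70.9 ± 1.75 to 63.1 ± 2.62 RPKM (adjusted p = 0.145), with 46.6% of its exon bases under genes of the opposite strand. The salvage and the de novo enzyme of thymidylate thus differed in sign, and the ratio of TK1 to TYMS went from 0.266 ± 0.0107 to 0.351 ± 0.00540. RRM2, the regulated subunit of ribonucleotide reductase, stood at 13.5, 15 and 14.7 RPKM against 12.5, 12.1 and 12.7 (log2 fold change -0.13, adjusted p = 0.109), with 20.2% of its exon bases in another gene. RRM1, the large subunit, stood at 48.6 and 47.4 RPKM (adjusted p = 0.529).

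Genes that rebuild chromatin behind the fork gave 1 rise and 3 that did not pass (25.0% called, beside 32.4% of all genes). SLBP, which binds the stem-loop of histone mRNA (chromosome 4, 1692800 to 1712555), stood at 75.1, 70.2 and 72.2 RPKM against 78.2, 78.8 and 75.7 (log2 fold change 0.18, SE 0.05, adjusted p = 0.0397). The groups lay close together, and the call was lost in 7 of the 16 alternatives, among them leaving out empty-vector library 2, empty-vector library 3, circAASS library 1 or circAASS library 2 (adjusted p up to 0.141). UHRF1, which guides maintenance methylation of DNA, stood at 47.6, 44.6 and 45.0 RPKM against 49.6, 45.9 and 49.0 (log2 fold change 0.15, adjusted p = 0.0741). CHAF1A and CHAF1B, subunits of the histone chaperone CAF-1, had estimates of opposite sign: 0.21 (99.5 and 109 RPKM, adjusted p = 0.0747) and -0.14 (7.64 and 6.55 RPKM, adjusted p = 0.108). The ratio of CHAF1A to CHAF1B went from 13.0 ± 0.171 to 16.6 ± 1.58.

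On the scaled values, all circAASS libraries lay above all empty-vector libraries in 16 members and below them in 20. Together these were 67.9% of the members, beside 47.9% of all tested genes. The split depends on the scaling, and on the deposited RPKM printed here fewer members lay above and more below. For example, ORC1, CDT1, MCM7 and CHAF1A overlapped as deposited, and MCM6 and ORC5 lay below. The members were measured more tightly than most genes: the median SE was 0.06 against 0.11, at a median level of 14.9 RPKM against 2.53. Of the 38 members that did not pass, 37 had a 95% interval within 0.5 of 0 on the log2 scale, POLA2 being the exception. That limit is wide beside the median absolute log2 fold change of 0.25 in called members. Called members such as ORC6 (0.20 to 0.47) also lie within it, so it does not set the uncalled members apart. An adjusted p between 0.05 and 0.10 was found in 11 of the 38, 5 with estimates above 0 and 6 below.

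Known regulators of the members included genes that rose and genes that fell. Of 19 E2F, RB and MuvB genes, 8 rose, 3 fell and 8 did not pass (57.9% called, beside 32.4% of all genes; the list was chosen with earlier results known, and the difference in shares was not tested), and 15 of the 19 estimates were above 0 under each of the 4 scalings. E2F1, an activator of S-phase genes, rose from 8.37 ± 0.132 to 11.5 ± 0.776 RPKM (log2 fold change 0.53, adjusted p = 0.00104). RBL1, the RB relative p107, fell from 7.39 ± 0.158 to 4.84 ± 0.240 RPKM (log2 fold change -0.52, adjusted p = 0.00177). FOXM1, an activator of mitotic genes, rose from 11.8 to 15.5 RPKM and the E2F repressor E2F6 from 4.27 to 5.52 (adjusted p = 0.00283 and 0.00319). All 4 kept their calls under the 16 alternatives.

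Calls among other genes of S phase were near or below the 32.4% of all genes. Of 10 cyclins, kinases and inhibitors of S phase, 2 fell and 8 did not pass. SKP2, which marks the inhibitor CDKN1B for breakdown, fell from 3.35 ± 0.203 to 1.99 ± 0.318 RPKM, and CCNE2, a cyclin E, from 8.58 ± 0.305 to 6.32 ± 0.487 (adjusted p = 0.00569 and 0.00459). For CCNE2, 37.1% of the exon bases also lie in opposite-strand genes. Of 26 further replication factors, 5 rose, 4 fell and 17 did not pass (34.6% called). MCM8 rose from 11.5 to 13.9 RPKM, while CHTF8, of an alternative clamp loader, fell from 10.6 to 6.66 and WDHD1, which tethers polymerase alpha, from 14.8 to 11.5. TOPBP1 rose from 13.2 to 14.9 RPKM and dropped out on leaving out empty-vector library 2 or 3 (over all alternatives, adjusted p reached 0.0723).

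Of 9 checkpoint genes, 22.2% were called, beside 32.4% of all genes. RAD1 rose and ATR fell (from 1.99 to 1.49 RPKM), each lost on leaving out any of 4 libraries (adjusted p up to 0.0763 for ATR and 0.108 for RAD1). Among further genes of nucleotide supply, NME1 rose from 24.5 to 27.4 RPKM and RRM2B fell from 1.71 to 1.17. Their calls were lost on leaving out any of 3 and of 4 libraries, with adjusted p up to 0.0992 over all alternatives. Of 9 further genes of chromatin assembly (22.2% called), the histone chaperone NASP fell from 236 to 185 RPKM and RBBP4 rose from 16.4 to 17.5, lost on leaving out any of 2 and of 5 libraries (adjusted p up to 0.224). Of 12 mitosis markers, 4 rose, 1 fell (KIF11, lost on leaving out any of 4 libraries) and 7 did not pass (41.7% called). AURKA rose from 21.5 ± 0.856 to 33.6 ± 3.34 RPKM, CCNB1 from 56.5 to 71.7, PLK1 from 9.97 to 13.3 and BIRC5 from 21.4 to 25.7. The proliferation marker MKI67 overlapped between groups, with a 95% interval of -0.19 to 0.29.

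**Figure D5:**
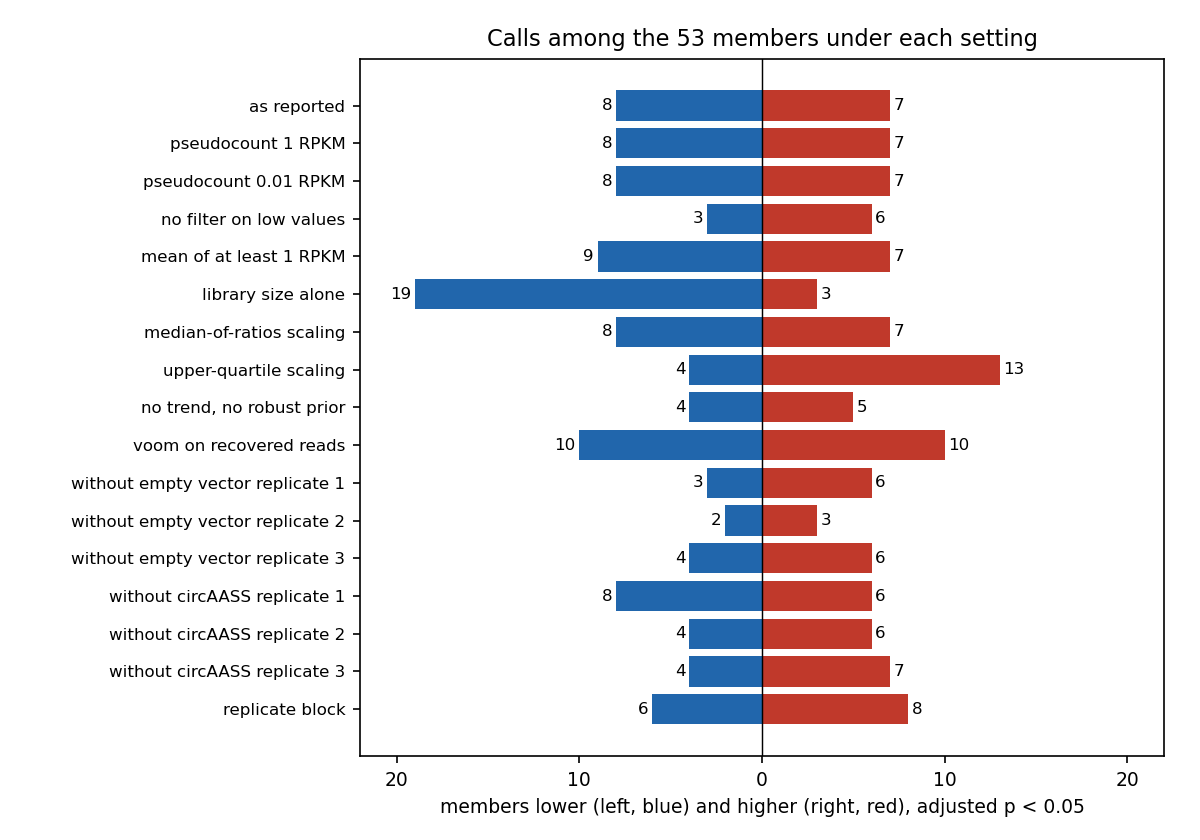
Number of the 53 members called lower (left, blue) and higher (right, red) as reported and under each of the 16 alternatives. The balance runs from 3 higher and 19 lower with library size alone to 13 higher and 4 lower with upper-quartile scaling. Over all tested genes the former gave 2159 higher and 4023 lower, and the latter 4065 higher and 2621 lower.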

How the data were processed

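The authors deposited RPKM, 1 column for each of the 6 libraries; the submitters' processing notes name Trimmomatic 0.36, featureCounts, Subread 1.5.1, edgeR 3.12.1 and the build GRCh38. Aligner, annotation and use of strand were not given in the sources used here. Whole reads were recovered from RPKM and exon lengths of GENCODE 29. Values were whole within 0.02 reads for 90.6% of 24697 genes with a unique name there. For the remaining 12622 genes, 5 of the 53 members included, the smallest fitting length was used. The recovered reads of these genes can therefore be a fraction of the true number. Of reads 1 to 20, 78.6% were even, since mates were mostly counted separately. Within each group, counts of any pair of libraries differed beyond counting error (chi-square per degree of freedom 5.81 to 22.1), so each was kept as its own replicate. Genes with names turned into dates (28) were left out.

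limma 3.58.1 (R 4.3.3; trend and robust prior) tested log2(RPKM + 0.1), two-sided, with group as the sole term and Benjamini-Hochberg adjustment over all genes tested; fold changes are on this scale and understate those of low genes. RPKM were divided by trimmed-mean factors from the recovered reads (30% of ratios and 5% of levels trimmed; 1.0165 to 1.0434 with empty vector, 0.9544 to 0.9958 with the circAASS plasmid). Genes needed 10 reads at the median library size in 3 libraries and 15 in all. The fit was tested on simulated data. Alternatives changed the pseudocount, filter, scaling, prior or model, left out 1 library, or added a replicate block. Members and gene lists were chosen with earlier results of these data known. Every member is named; values per library are given for those that passed and for the 2 smallest p of each role, and up to 4 of each other list that passed are named. Other genes, such as MKI67, KIF11, RN7SK, the pairs set in ratio and the values per library of PCNA, were picked after their values were seen. Python 3.11, numpy 2.4.6, pandas 2.3.3 and matplotlib 3.10.9 were used. Some genes of the lists are not reported here.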

Additional observations from a re-analysis of the deposited data

How the results depend on the processing

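Comparing each member's call with each of 16 alternatives, 767 comparisons kept the call, 55 lost a call and 26 gained one. None reversed, where a change of sign counted only if the reported or the alternative value passed. Members that passed in neither could change sign, as MCM3 did from 0.06 to -0.02 with library size alone. Estimates above 0 numbered 28 as reported and 19 with library size alone. Among the 53 members, library size alone gave 3 higher and 19 lower with a median of -0.06. Upper-quartile scaling gave 13 and 4 with a median of 0.07. Over all genes library size alone gave 2159 higher and 4023 lower, and upper-quartile scaling 4065 and 2621. The medians differ because the factors shift every gene. Lower members numbered 3 with no filter on low values, where 35007 genes were tested and 2084 of all genes were lower. Without trend and robust prior they numbered 4, with 2960 of all genes lower, and the cause of this was not tested. Leaving out 1 library at a time gave 3 to 7 higher and 2 to 8 lower members, with a median of 0.00 to 0.04, from fewer samples. The fewest came without empty-vector library 2 (3 and 2), followed by empty-vector library 1 (6 and 3), empty-vector library 3 and circAASS library 2 (6 and 4 each) and circAASS library 3 (7 and 4). Over all genes these fits gave 2154 to 2830 higher and 1983 to 2841 lower, against 3172 and 3090. A replicate block gave 8 higher and 6 lower members and 2800 and 2647 genes in all. The repeat numbers did not pair the libraries: same-numbered deviations correlated across genes at -0.005, -0.024 and 0.023, and not every library correlated best with its own number. Members had a median SE of 0.06, and those called a median absolute log2 fold change of 0.25, so that small shifts in the spread or scaling move calls across the threshold.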
